A study of Mus musculus with 18 samples.

Results

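The nuclear genes of the mitochondrial ribosome and of the respiratory chain were chosen by name. They comprised the protein-coding genes of the RefSeq mouse table whose symbols begin with Mrpl or Mrps followed by a digit, with Nduf, or with Cox4 to Cox8. Of 21887 protein-coding genes outside the mitochondrial genome, 145 met this rule: 49 of the large and 29 of the small subunit of the mitochondrial ribosome, 41 subunits and 8 assembly factors of complex I, and 18 subunits of complex IV. Roles follow the symbols, so Ndufa4 and Ndufa4l2 count under complex I.

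The data were ATAC-seq peak lists of sorted lung epithelial cells from adult C57BL/6 mice (c57/bl6 in the labels) aged 6 to 12 weeks. In this assay a transposase inserts adapters into open DNA, so a peak marks accessible chromatin. Cells were negative for CD31 and CD45, positive for Epcam and Sca-1, and divided by CD24 into CD24neg, CD24low and CD24high populations. Mice received G9ai, an inhibitor of the histone H3 lysine 9 methyltransferase G9a, or Vehicle; the labels name no genetic change, and the sources used here give neither compound, dose nor duration. Peak lists were at hand for 10 of the 18 samples. Each population had G9ai libraries 2 and 3 and vehicle library 3, and CD24low also had vehicle library 2, while the remaining 8 samples were not analysed here.

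The lists held 2552 to 12985 peaks each, and they are subsets in which replicates of a group share nearly all peaks and the arms share almost none. A gene without a listed peak may thus be open in both arms, and that replicate lists share a peak is no independent replication. A region is called G9ai-only when every G9ai library of a population and no vehicle library has a peak there, and vehicle-only in the opposite case. A gene holds a region when the region overlaps its span or 1 kb on either side. Of 15 marker genes, 10 held a region in some population, while 43.7% of all protein-coding genes did. Those without one were Epcam, Ly6a (Sca-1) and Cd24a of the sort, the basal keratin gene Krt5 and the alveolar type 1 gene Ager. In CD24low 6 markers held G9ai-only regions: the club cell genes Scgb1a1, Scgb3a2 and Cyp2f2, the ciliated cell gene Foxj1, the alveolar gene Hopx and Pecam1 (CD31). Hopx and the surfactant gene Sftpc held vehicle-only regions there. In CD24high Scgb1a1, Cyp2f2, Foxj1, Hopx and Pecam1 held vehicle-only regions, and in CD24neg Foxj1, Trp63, Lamp3, Pecam1 and Ptprc (CD45) did; neither population had a marker with a G9ai-only region. Cell type genes, including those of the CD31 and CD45 cells that the gate removes, thus differed between the arms' lists too, and their part in the results was not tested.

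Mitochondria make a few core subunits of the respiratory chain from their own genome, on ribosomes whose proteins are all encoded in the nucleus. Complex I passes electrons from NADH to ubiquinone, and complex IV, cytochrome c oxidase, passes them on to oxygen. The nuclear genes for these machines are housekeeping genes, active in nearly all cells including those of the lung, and their promoters are known for sites of the factors NRF1, GABP (an ETS factor) and YY1. They are short genes, with a median length of 7.59 kb against 17.2 kb for all protein-coding genes.

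Promoter sequences from RefSeq (GRCm38.p6, the mm10 build, 250 bases before to 50 after the start site) matched 124 of the 145 genes. Those printed here belong to genes whose promoter carried a listed peak, taken by the score rank of that peak with at most 2 genes of a role, to show the promoters on which the strongest listed peaks lie. Capitals mark matches anywhere in the window, under a peak or not, on either strand, to GCGCANGCG (NRF1), CCGGAAG (ETS), AANATGGCG (YY1) or GGGCGG (the GC box of Sp1). Mrps9 lies at chr1:42850983-42851282 on the plus strand, Mrps18b at chr17:35916391-35916690 on the minus strand, Mrpl27 at chr11:94653541-94653840 on the plus strand, Mrpl3 at chr9:105053018-105053317 on the plus strand, Ndufb2 at chr6:39592315-39592614 on the plus strand and Ndufa4 at chr6:11907401-11907700 on the minus strand. The peaks at Mrps9, Mrps18b and Ndufb2 were listed in vehicle libraries, those at Mrpl3 and Ndufa4 in G9ai libraries, and Mrpl27 had both, in different populations.
Mrps9: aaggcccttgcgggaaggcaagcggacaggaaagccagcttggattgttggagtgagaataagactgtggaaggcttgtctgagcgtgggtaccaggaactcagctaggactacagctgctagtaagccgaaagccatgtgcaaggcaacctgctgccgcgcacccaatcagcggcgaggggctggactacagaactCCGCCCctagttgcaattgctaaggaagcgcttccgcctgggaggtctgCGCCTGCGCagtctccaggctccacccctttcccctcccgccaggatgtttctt
Mrps18b: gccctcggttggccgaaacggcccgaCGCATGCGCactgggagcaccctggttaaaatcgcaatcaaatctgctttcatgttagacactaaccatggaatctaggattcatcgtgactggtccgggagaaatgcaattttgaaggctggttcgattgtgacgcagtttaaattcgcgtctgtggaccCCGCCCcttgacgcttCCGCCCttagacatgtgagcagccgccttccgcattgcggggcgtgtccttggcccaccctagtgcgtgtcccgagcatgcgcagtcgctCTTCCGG
Mrpl27: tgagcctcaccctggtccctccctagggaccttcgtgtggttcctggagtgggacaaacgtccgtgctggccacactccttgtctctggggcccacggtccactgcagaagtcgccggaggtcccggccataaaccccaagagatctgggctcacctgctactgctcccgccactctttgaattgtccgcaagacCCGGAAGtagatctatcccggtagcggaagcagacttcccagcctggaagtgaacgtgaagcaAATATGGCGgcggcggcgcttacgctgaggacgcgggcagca
Mrpl3: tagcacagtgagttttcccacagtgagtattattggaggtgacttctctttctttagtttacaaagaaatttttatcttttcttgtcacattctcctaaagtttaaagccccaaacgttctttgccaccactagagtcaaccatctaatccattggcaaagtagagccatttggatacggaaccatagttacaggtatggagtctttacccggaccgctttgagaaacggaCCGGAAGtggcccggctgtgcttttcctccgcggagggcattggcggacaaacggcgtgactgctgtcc
Ndufb2: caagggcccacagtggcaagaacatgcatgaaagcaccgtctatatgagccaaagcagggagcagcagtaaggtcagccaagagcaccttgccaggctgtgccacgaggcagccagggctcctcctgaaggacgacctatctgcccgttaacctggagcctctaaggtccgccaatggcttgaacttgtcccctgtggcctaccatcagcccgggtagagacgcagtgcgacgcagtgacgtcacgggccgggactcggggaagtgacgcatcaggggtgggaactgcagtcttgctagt
Ndufa4: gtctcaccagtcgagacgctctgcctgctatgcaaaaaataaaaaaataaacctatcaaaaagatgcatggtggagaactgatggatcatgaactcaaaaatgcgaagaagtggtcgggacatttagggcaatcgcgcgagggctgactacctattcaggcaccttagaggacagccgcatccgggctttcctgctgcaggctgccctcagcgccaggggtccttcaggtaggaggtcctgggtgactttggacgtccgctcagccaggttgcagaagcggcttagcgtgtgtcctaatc
The Mrps9 window holds 1 NRF1 match and 1 GC box, and Mrpl27 holds 1 ETS and 1 YY1 match. Mrps18b holds 1 NRF1 match, which its listed peaks do not reach, 1 ETS match and 2 GC boxes, and Mrpl3 holds 1 ETS match. The windows of Ndufb2 and Ndufa4 hold none of the searched letters.

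In all, 52 of the 145 genes (35.9%) held a G9ai-only or vehicle-only region in at least 1 population, against 43.7% of all protein-coding genes. Weighting all genes to the lengths of the mitochondrial genes gave 32.2%. Of the 52 genes, 22 held vehicle-only regions alone, 15 held G9ai-only regions alone and the other 15 held both kinds. The remaining 93 genes had no such region. By role, regions lay in 20 of 49 large-subunit and 9 of 29 small-subunit ribosomal genes. They also lay in 13 of 41 complex I subunit genes, 5 of 8 assembly factor genes and 5 of 18 complex IV genes.

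**Figure D1:**
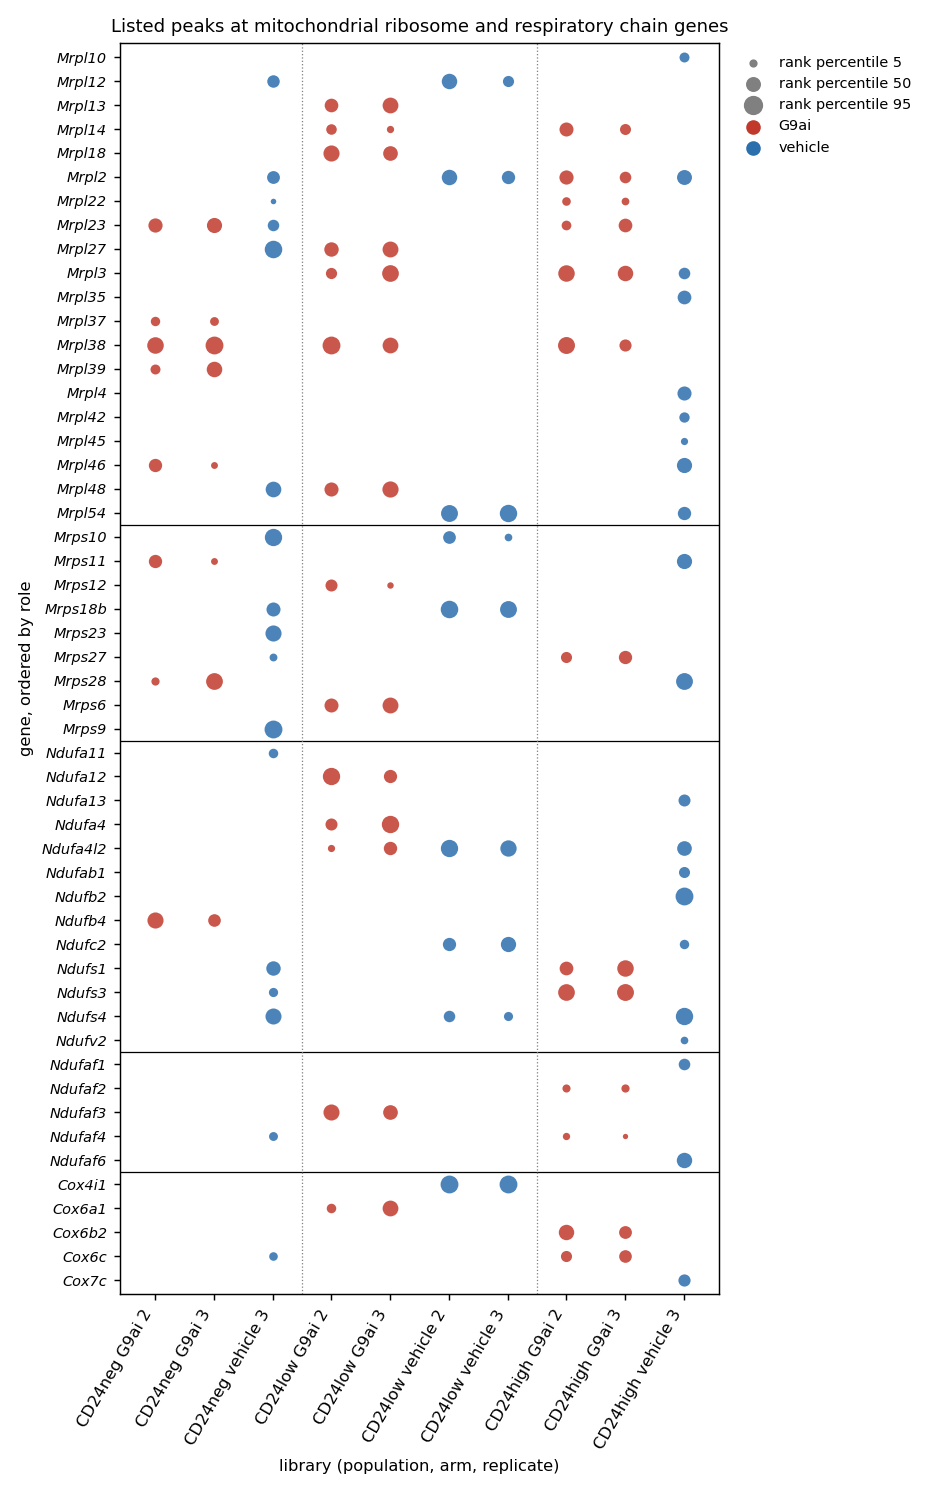
Each row is 1 of the 52 genes with a region, ordered by role, and each column is 1 library. A dot marks a listed peak in the gene span or 1 kb around it, its size the rank percentile of the best peak score within that list, red for G9ai and blue for vehicle. Mrpl38 has red dots in all 6 G9ai libraries, and Ndufs4, a long gene of 100300 bp, has blue dots in all 4 vehicle libraries.

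The first comparison asked which of these genes had accessible regions in CD24low cells with the inhibitor or with vehicle alone. G9ai-only regions lay in 14 genes (9.66%; 15.9% of all genes), with 7 large-subunit ribosomal genes, Mrpl3, Mrpl13, Mrpl14, Mrpl18, Mrpl27, Mrpl38 and Mrpl48, among them. Vehicle-only regions lay in 9 genes (6.21%; 7.44% of all genes), led by Cox4i1, the gene of the largest nuclear-encoded subunit of complex IV. Weighted to the lengths of these genes, the shares of all genes were 9.97% and 4.86%. The G9ai lists of CD24low held 7379 and 7361 peaks and the vehicle lists 2558 and 2552. With every list shortened to its 2552 highest-scoring peaks, the counts were 1 G9ai-only and 9 vehicle-only genes, so which arm has more genes depends on list length. The 2 sets had 1 gene in common, Ndufa4l2, a paralogue of Ndufa4 known to be induced by hypoxia.

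The Cox4i1 region spanned chromosome 8 from 120667994 to 120668393 (mm10), across the lower-coordinate end of the gene span (120668225 to 120674209). Its peak had an authors' score of 276 in vehicle replicate 2 and 314 in vehicle replicate 3, at rank percentiles 99.7 and 99.8 of those lists, where 100 is the highest score. Neither G9ai list of CD24low had a peak there. The neighbours Emc8, a subunit of the complex that inserts membrane proteins, and Gm27021 share this region.

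Mrps18b, a small-subunit protein gene, held a vehicle-only region across its start site, with scores of 133 and 123 (rank percentiles 95.8 and 88.1). The neighbour Ppp1r10 shares it. Mrpl54, a large-subunit gene, followed with scores of 109 and 146 at the end of its span (rank percentiles 88.6 and 94.4), in a region shared with Apba3. The peaks of these genes thus lay in the upper ranks of both vehicle lists. Lower in rank came Mrpl2, Ndufc2, Mrpl12, Mrps10 and Ndufs4, at mean rank percentiles of 62.2, 60.7, 53.1, 28.7 and 27.8.

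On the G9ai side Mrpl38, a protein of the central protuberance of the large subunit, had the highest mean rank percentile, 87.9. Its scores in CD24low were 330 and 87 in G9ai replicates 2 and 3, at rank percentiles 99.7 and 76.1. Mrpl18, another large-subunit gene, had scores of 132 and 76, with the chaperonin gene Tcp1 sharing the region. Ndufa12, an accessory subunit of complex I, had 174 and 67. The complex I assembly factor gene Ndufaf3 had 131 and 76, 682 bp outside its gene span in a region shared with Dalrd3.

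Ndufa4, named for complex I and counted there by its symbol, as is its paralogue Ndufa4l2, is now regarded as a complex IV subunit. It held a G9ai-only region across its start site with scores of 82 and 121. Mrpl27, Mrpl48, Mrps6, Mrpl13 and Mrpl3 had mean rank percentiles from 69.6 for Mrpl27 down to 65.4 for Mrpl13, with Mrpl3 lower still at scores of 76 and 101. Cox6a1, the broadly expressed isoform of subunit 6a, followed at 49.1 and Mrps12 at 22.9. By definition of the set, neither vehicle list held a peak at these regions.

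In CD24neg cells vehicle-only regions lay in 17 genes (11.7%; 18.9% of all genes, 11.9% weighted by length). G9ai-only regions lay in 8 genes (5.52%; 10.6% of all genes, 6.38% weighted by length). The vehicle side rests on 1 library. It held 6 large-subunit ribosomal genes, Mrpl2, Mrpl12, Mrpl22, Mrpl23, Mrpl27 and Mrpl48, and 5 small-subunit genes, Mrps9, Mrps10, Mrps18b, Mrps23 and Mrps27. The others were 4 complex I subunit genes, Ndufa11, Ndufs1, Ndufs3 and Ndufs4, with Ndufaf4 and Cox6c. The G9ai side held 5 large-subunit genes, Mrpl23, Mrpl37, Mrpl38, Mrpl39 and Mrpl46, with Mrps11, Mrps28 and Ndufb4.

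Mrps9 had the peak of highest rank, with a score of 555 in the vehicle library (rank percentile 99.9) and none in either G9ai list. Its region, on chromosome 1 from 42851037 to 42851567, runs across the start of the 54451 bp gene and over the NRF1 match printed for it. Mrpl27, whose product lies near the peptidyl transferase centre, followed at a score of 195, then Mrps10 at 175 and Mrps23 at 131. Ndufs4, an accessory subunit of the NADH-oxidising module of complex I with a gene of 100300 bp, held 4 separate vehicle-only regions. Their scores were 129, 127, 92 and 76, and the last lay across its start site. Mrpl48 held 3, of which 2 lay at internal start sites of the RefSeq table.

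Among the G9ai-only genes of CD24neg, Mrpl38 had scores of 113 and 493 in replicates 2 and 3 (rank percentiles 84.6 and 99.7). The order of the replicates was the opposite of that in CD24low. Ndufb4, a membrane-arm subunit of complex I, had 103 and 82, and Mrps28 had 54 and 138. Mrpl46 and Mrps11, neighbours that point away from each other, share 1 region just inside the start of Mrps11, with scores of 77 and 52. Mrpl23 held a G9ai-only region centred 450 bp downstream of a start site and a vehicle-only region that overlaps the promoter window of that site.

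In CD24high cells vehicle-only regions lay in 21 genes (14.5%; 25.0% of all genes, 16.1% weighted by length). G9ai-only regions lay in 13 genes (8.97%; 8.01% of all genes, 5.12% weighted by length). Here too the vehicle side rests on 1 library, whose list held 12985 peaks against 2798 and 2817 in the G9ai lists. At 2552 peaks in every list the order turned, to 3 vehicle-only and 12 G9ai-only genes. Vehicle-only regions lay in 9 large-subunit ribosomal and 7 complex I subunit genes, and G9ai-only regions in 6 large-subunit genes, Mrps27, 2 complex I subunit genes (Ndufs1 and Ndufs3), 2 assembly factor genes (Ndufaf2 and Ndufaf4) and 2 complex IV genes (Cox6b2 and Cox6c).

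Ndufb2, a small membrane-arm subunit of complex I, had the peak of highest rank on the vehicle side, with a score of 524 (rank percentile 99.7). Its region, on chromosome 6 from 39592129 to 39592664, covers the whole of the printed promoter. Ndufs4 followed with a score of 220 at a site 46568 bp from its nearer end, and Mrps28 with 181. Ndufaf6, Mrps11, Mrpl46, Ndufa4l2, Mrpl4, Mrpl35, Mrpl54, Cox7c and Ndufa13 came next among genes with vehicle-only regions alone in CD24high, with best scores of 88 to 136. Ndufaf1, another assembly factor gene, had 85 across its start site.

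By mean rank percentile the leading G9ai-only gene in CD24high was Ndufs3, a core subunit of the ubiquinone-reducing module, with 136 and 141 in replicates 2 and 3. Mrpl38 had 144 and 77, Mrpl3 130 and 109, and Ndufs1, the largest iron-sulfur subunit of complex I, 91 and 129. Cox6b2, known as the testis isoform of subunit 6b, had 110 and 82. Lowest were Ndufaf4, with 54 and 43, and the second Mrpl14 region, with 45 and 47. Their rank percentiles were 9.3 and 0.7, and 1.6 and 3.1.

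**Figure D2:**
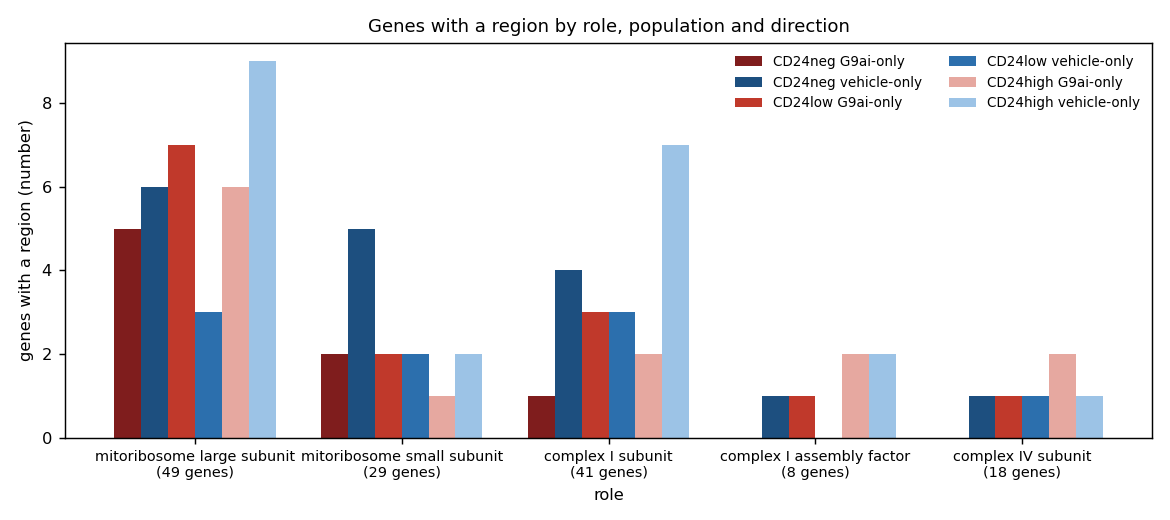
Bars give the number of genes with a region, by role (x axis, with the number of genes in each role) and by population and direction. The tallest bar is that of vehicle-only regions of CD24high in the large ribosomal subunit, with 9 genes; G9ai-only regions of CD24low in that subunit and vehicle-only regions of CD24high in complex I follow with 7 each.

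As a share of each list, peaks at these genes made up 0.190% and 0.204% in the 2 G9ai libraries of CD24low and 0.352% and 0.353% in its 2 vehicle libraries. The arms did not overlap, and the difference of the means was -0.155 percentage points (G9ai minus vehicle). An exact two-sided permutation test gave p = 0.333, the smallest that 2 against 2 libraries allow. Lists of the same arm share nearly all peaks, so their closeness is no independent replication. That limit also holds for the test over all populations below. In CD24neg the share was 0.192% ± 0.000784 (SD, n = 2) with G9ai and 0.259% in the vehicle library (23 of 8870 peaks, 95% Wilson interval 0.173% to 0.389%). In CD24high it was 0.534% ± 0.00256 (SD, n = 2) with G9ai and 0.200% in the vehicle library (26 of 12985 peaks, interval 0.137% to 0.293%). For G9ai replicate 2 the Wilson intervals were 0.0972% to 0.378% in CD24neg and 0.325% to 0.883% in CD24high. The intervals cover counting error only. Each SD compares lists that share nearly all peaks, so it does not measure the spread between mice. The difference thus ran one way in CD24high and the other way in CD24low and CD24neg. Over all 3 populations, with arms exchanged within populations, the summed difference was 0.112 percentage points (exact permutation p = 0.889, two-sided, 54 arrangements).

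Gene length moved with these counts. Of all protein-coding genes under 5 kb, 5.90% held a vehicle-only region in CD24high, and of those over 50 kb, 50.3% did; for the mitochondrial genes these were 3 of 47 and 2 of 9. Of the mitochondrial genes 32.4% were under 5 kb and 36.6% between 5 and 10 kb, against 23.0% and 13.2% of all genes. Within 5 to 10 kb, the class with most of them, G9ai-only regions of CD24high lay in 5 of 53 mitochondrial genes (9.43%) and 4.77% of all genes. Vehicle-only regions of CD24low lay in 4 of 53 (7.55%) and 4.43%. Vehicle-only regions of CD24high lay in 9 of 53 (17.0%) and 15.2%. G9ai-only regions of CD24low lay in 9.43% of the mitochondrial genes of this class and 8.82% of all genes. In CD24neg the shares were 13.2% and 11.2% for vehicle-only and 9.43% and 5.40% for G9ai-only regions.

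**Figure D3:**
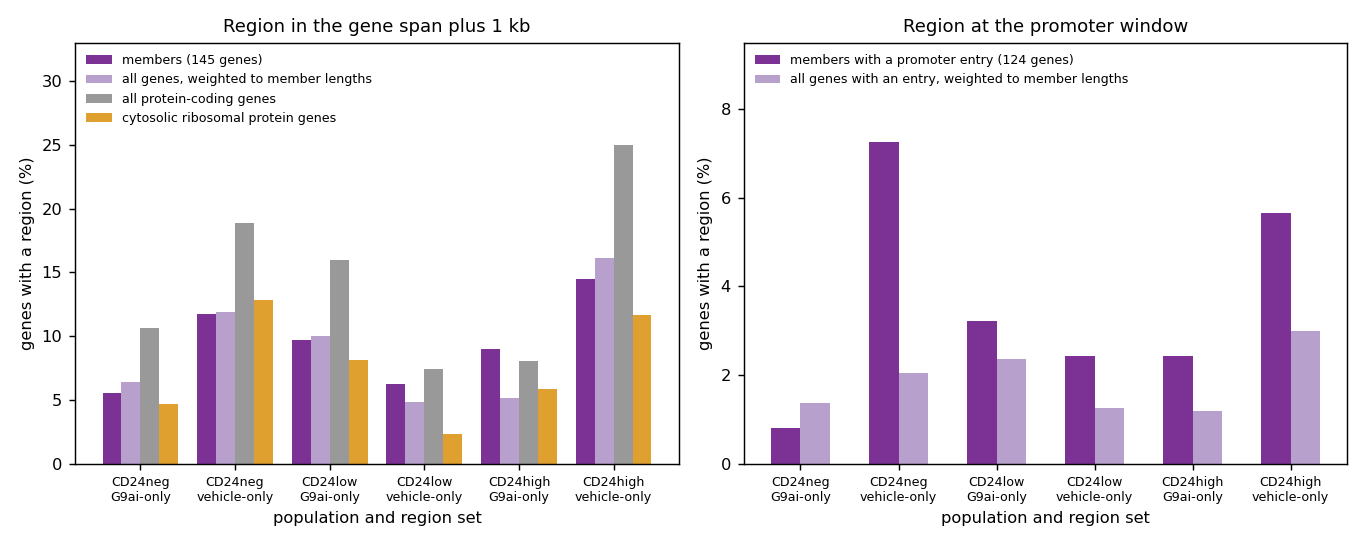
Percent of genes with a region in each population and set, on the left for the gene span plus 1 kb and on the right for the RefSeq promoter window (purple, mitochondrial genes; pale purple, all genes weighted by length; grey, all genes; ochre, cytosolic ribosomal protein genes). On the left the weighted bars of all genes lie near those of the mitochondrial genes in most sets (11.9% and 11.7% for CD24neg vehicle-only); on the right the mitochondrial genes reach 7.26% in that set against 2.04% weighted.

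Cytosolic ribosomal protein genes, another set of short housekeeping genes (86 genes, median length 3.15 kb), held a region in 26 cases (30.2%). G9ai-only and vehicle-only regions lay in 4 and 11 of them in CD24neg, 7 and 2 in CD24low, and 5 and 10 in CD24high. Over all genes the shares were 10.6% and 18.9% in CD24neg, 15.9% and 7.44% in CD24low, and 8.01% and 25.0% in CD24high. In CD24low the vehicle-only share was 2.33% of the cytosolic ribosomal genes and 6.21% of the mitochondrial genes. These lists differ in length and were not weighted to each other. Under 5 kb, 3 of 47 mitochondrial genes (6.38%) and 2.09% of all genes held such a region.

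Most regions lay at gene ends. Of 93 distinct regions, counted in each population, 61 lay within 1 kb of an end of a mitochondrial gene. Set by set these were 59.1% to 73.3% of the regions, against 22.3% to 36.6% of the regions linked to any gene. These shares of regions are not weighted by length, and in short genes more of the window lies near an end. They do not show that regions of these genes favour gene ends more than those of other short genes. Near an end, G9ai-only regions lay in 11 genes in CD24high (7.59%; 3.09% of all genes, 3.06% weighted by length), 10 in CD24low (6.90%; 6.04% of all genes) and 6 in CD24neg (4.14%; 3.72% of all genes). Vehicle-only regions there lay in 15 genes in CD24high (10.3%; 9.04% of all genes), 6 in CD24low (4.14%; 3.10% of all genes) and 12 in CD24neg (8.28%; 6.52% of all genes). Weighted by length, the shares of all genes for G9ai-only regions were 5.75% in CD24low and 3.41% in CD24neg. For vehicle-only regions they were 8.51% in CD24high, 2.79% in CD24low and 6.13% in CD24neg. Of the 93 regions, 32 also lay in the window of another gene, so a region cannot always be credited to the mitochondrial gene.

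Of 73 regions, counted per gene, of genes with a promoter entry, 42 were centred within 500 bp of a start site, and the median distance was 368 bp. Vehicle-only regions overlapped the promoter window of 9 of 124 genes in CD24neg (7.26%; 2.34% of all genes with an entry, 2.04% weighted by length). These were Mrpl12, Mrpl22, Mrpl23, Mrpl27, Mrpl48, Mrps9, Mrps18b, Ndufa11 and Ndufs4. In CD24high the count was 7 (5.65%; 3.36% of all genes, 2.98% weighted) and in CD24low 3 (2.42%; 1.69% of all genes). G9ai-only regions overlapped the promoter windows of 1 gene in CD24neg (0.806%; 1.77% of all genes), 4 in CD24low (3.23%; 2.73% of all genes) and 3 in CD24high (2.42%; 1.35% of all genes). Weighted by length, these G9ai-only shares of all genes were 1.37%, 2.35% and 1.18%. The weighted share for vehicle-only regions of CD24low was 1.26%.

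**Figure D4:**
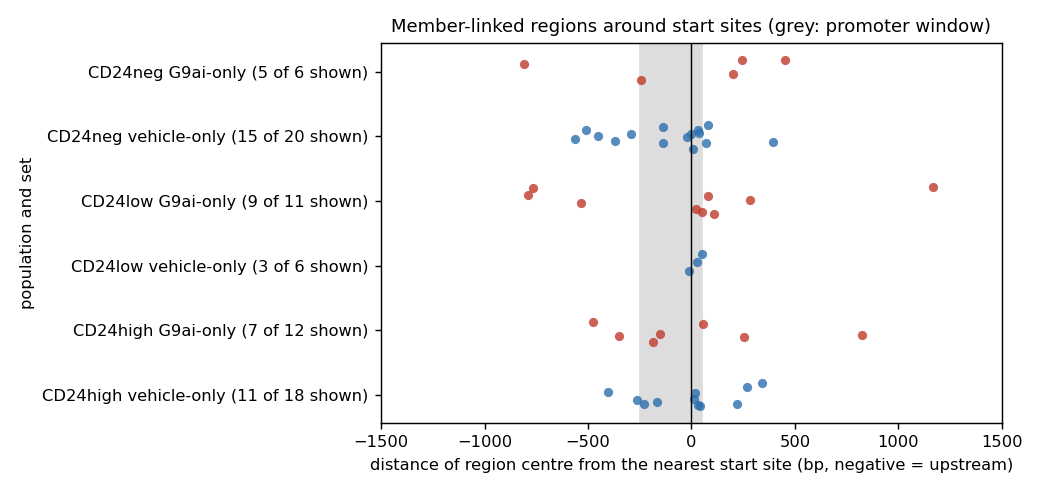
Each point is a region of a gene with a promoter entry, placed by the distance of its centre from the nearest start site in bp, negative upstream; the grey band is the promoter window and points beyond 1500 bp are left out, with the number shown beside each row. In CD24neg, 9 genes have a vehicle-only region that overlaps the grey band, and 1 gene has a G9ai-only region that does.

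Letters of NRF1 sites stood in the promoter windows of 27 of 124 mitochondrial genes (21.8%) and 9.63% of all genes with an entry. ETS letters stood in 35 (28.2%; 12.9% of all genes) and YY1 letters in 19 (15.3%; 3.64% of all genes), while the GC box stood in 61 (49.2%; 49.2% of all genes). Of 66 cytosolic ribosomal protein genes with an entry, 36.4% had ETS letters and 12.1% YY1 letters. NRF1 letters stood in 13.6% of them and the GC box in 56.1%. Matches of different motifs overlapped in 3 of the windows of mitochondrial genes. At least 1 of the NRF1, ETS and YY1 motifs stood in 68 of the 124 windows (54.8%; 22.7% of all genes). Of the 18 genes whose window overlapped a listed region, 12 (66.7%) had one. NRF1 letters stood in 7 of the 18, ETS letters in 6, YY1 letters in 2 and the GC box in 8. Of those with a G9ai-only region at the window, 1 of 6 had NRF1 letters, and of those with a vehicle-only region 6 of 15. By role, ETS letters were in 11 of 26 small-subunit and 15 of 43 large-subunit ribosomal genes and in 4 of 35 complex I subunit genes. A match of letters does not show that a factor binds there.

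Between populations, regions of the same gene often lay at the same position. Mrpl38 held a G9ai-only region at the higher-coordinate end of its gene in all 3 populations, within 116138482 to 116139105 on chromosome 11. All 6 G9ai libraries and none of the 4 vehicle libraries had a peak there. Ndufs4, a long gene of 100300 bp, held vehicle-only regions in all 3 populations. Of all genes over 50 kb, 40.4% held one in CD24neg, 15.2% in CD24low and 50.3% in CD24high. The Ndufs4 region near the far end of the gene, at 114289573 to 114289662 on chromosome 13, was common to CD24neg and CD24low. The one at its start site was common to CD24neg and CD24high. Mrpl2, the other gene with regions in all 3, differed by position. At its start site it held vehicle-only regions in CD24low (scores 84 and 76) and CD24high (127), and further upstream, centred at -450 bp and -476 bp, a vehicle-only region in CD24neg and a G9ai-only region in CD24high.

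CD24low and CD24high had 8 mitochondrial genes with regions in both populations, and overlapping regions had the same direction in 6 genes and opposite directions in 0. These 6 were Mrpl2, Mrpl3, Mrpl54, Ndufa4l2, Ndufc2 and Mrpl38. Over all genes with regions in both, 18.7% had overlapping regions of the same direction and 25.9% of opposite directions. CD24neg and CD24high had 13 such mitochondrial genes, with overlapping regions of opposite directions in 7 and of the same direction in 2; over all genes the shares were 17.8% and 28.4%. For CD24neg and CD24low the counts were 2 opposite and 4 same among 8 genes, and the shares over all genes 21.5% and 19.6%. Among other genes under 20 kb with regions in both CD24neg and CD24high, 152 of 655 had opposite and 235 the same directions, and for CD24low and CD24high 173 of 525 and 121. These 3 comparisons share libraries, since each population enters 2 of them, and their counts are not independent. Peak names carry a prefix that the populations have in common within an arm and replicate number, and no source used here says what it stands for.

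Of the 7 genes with opposite directions in CD24neg and CD24high, 5 had vehicle-only regions in CD24neg and G9ai-only regions in CD24high: Ndufs1, Ndufs3, Cox6c, Mrpl2 and Mrpl23. At Ndufs1 the vehicle library of CD24neg scored 105, and the G9ai libraries of CD24high 91 and 129, just beyond the higher-coordinate end of the gene in a region shared with the elongation factor gene Eef1b2. At Ndufs3 the values were 64, and 136 and 141, centred at -368 bp and -352 bp from its start site, in a region shared with Kbtbd4. At Cox6c, a complex IV subunit gene, they were 60, and 73 and 81, inside the gene near its higher-coordinate end.

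Mrpl46 and Mrps11 showed the reverse order at their common region. The G9ai libraries of CD24neg scored 77 and 52 and the vehicle library of CD24high 131. Between CD24neg and CD24low, Mrpl27 went from vehicle-only (195) to G9ai-only (105 and 88) at a region across its start site, and Mrpl48 from vehicle-only (124) to G9ai-only (101 and 92) at a site inside the gene. No list of the third population had a peak in the windows of Ndufs1, Ndufs3, Cox6c, Mrpl27, Mrpl46, Mrps11 and Mrpl48.

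**Figure D5:**
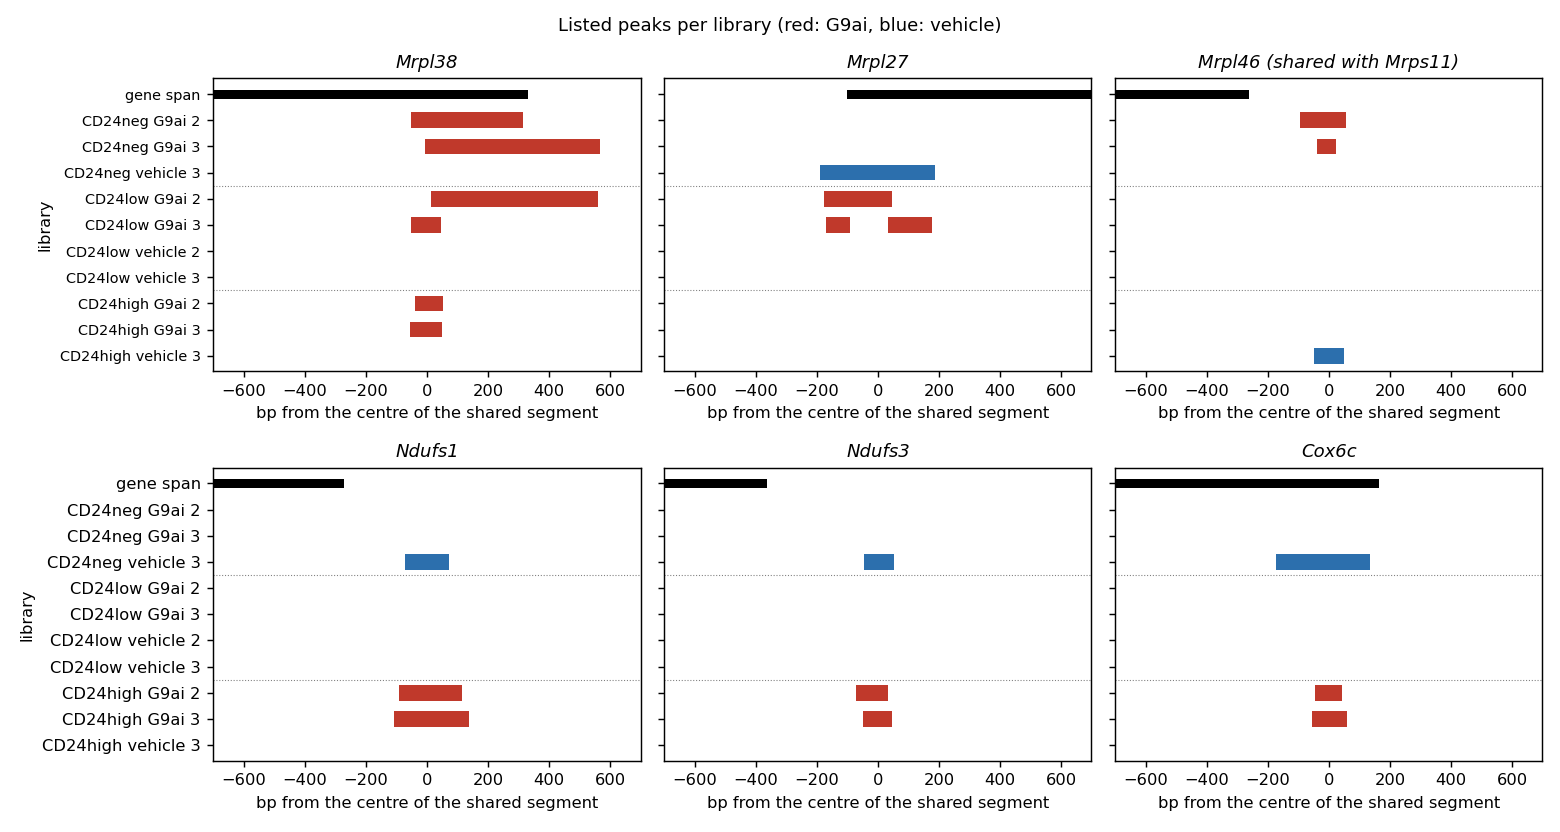
Bars are listed peaks in each library (rows) at 6 genes, in bp from the centre of the segment shared between populations, red for G9ai and blue for vehicle, with the gene span in black on top. Mrpl38 has red bars in 3 populations, while the other genes have blue bars in one population and red bars in another over the same segment.

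The other genes of the pathway gave the following counts, beside 43.7% of all genes with a region in at least 1 population. Of 8 complex II genes, 3 held a region, and all of these were vehicle-only: Sdhaf1 in CD24low, and Sdha and Sdhb in CD24high. Of 15 complex III genes, 6 held a region, and in CD24high 5 had vehicle-only and 0 had G9ai-only regions. The counts in CD24high were 5 and 0 of 18 in the ATP synthase list and 6 and 0 of 23 in the list of cytochrome oxidase assembly genes. Vehicle-only regions of CD24high lay in 25.0% of all genes and G9ai-only regions in 8.01%; no test was made of these counts. Elsewhere the order was mixed, and the counts that follow are G9ai-only, then vehicle-only. In CD24neg they were 3 and 1 for ATP synthase, 2 and 3 for cytochrome oxidase assembly, 1 and 3 for mitochondrial import and 1 and 1 for complex III. In CD24low they were 2 and 1 for complex III and 2 and 0 for cytochrome oxidase assembly. There ATP synthase had 1 and 2, complex II 0 and 1, and mitochondrial import 3 and 3. Over all genes the G9ai-only and vehicle-only shares were 10.6% and 18.9% in CD24neg and 15.9% and 7.44% in CD24low. The orders of complex III and cytochrome oxidase assembly in CD24low, and of cytochrome oxidase assembly and import in CD24neg, were those of all genes. Of 28 import genes, 8 had vehicle-only and 2 G9ai-only regions in CD24high.

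Of 20 genes of regulators of mitochondrial genes, 7 held a region, while 43.7% of all genes did. In CD24neg, G9ai-only regions lay in 5 of them, namely Nrf1, Gabpa and Gabpb1, which encode the factors that bind the NRF1 and ETS sites, Tfam, the packaging factor of mitochondrial DNA, and Ppargc1a, a coactivator of mitochondrial biogenesis. That is 25.0% of the list, against 10.6% of all genes, with no weighting for length. Vehicle-only regions lay in 3 of the 20 in CD24neg, Gabpb1 and Ppargc1a among them. The other populations did not have that order: G9ai-only and vehicle-only regions lay in 2 and 4 of the 20 in CD24low and in 1 and 4 in CD24high. Gabpa held vehicle-only regions in both of these, and Tfam in CD24high. Yy1 held no region in any population.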

How the data were processed

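ATAC-seq libraries were made from 10000 cells each. FastQC, Bowtie2 and MACS2 were used with build mm10, per the submitters' processing notes; the sources used here give no versions, settings, read shifting or threshold. Each deposited list gives peak intervals and the authors' peak score, whose scale is not given; its use here was to rank peaks of 1 list. Depth is unknown.

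Repeated lines (47 to 472 per list) were dropped. Peaks of a population were merged at an overlap of 1 bp or more. Genes and promoters came from RefSeq tables of GRCm38.p6, the build of mm10. Length-weighted shares average the share of all genes within 5 length classes (edges 5, 10, 20 and 50 kb) over the classes of the mitochondrial genes. Shares per library were compared by exact permutation of arm labels. Python 3.11.15, pandas 2.3.3 and scipy 1.17.1 were used, and region calling was tested on simulated data. Symbols of S6 kinases and Rps19bp1 were left out of the cytosolic ribosomal list. The 20 names of the ATP synthase list matched 18 genes.

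The design text names separate mice. Replicate numbers shared by the arms do not pair mice. Genes were named by a rule: Cox4i1 and Mrps9, up to 12 genes per set by score rank among those with regions in 1 direction, genes with regions in all 3 populations, and up to 12 with opposite directions; Mrpl40, Ndufaf1 and the genes that complete a count were named after their values were seen. The genes and lists were chosen with earlier results of these data known. Alternatives changed the gene window, score limit, list length, overlap, region definition, gene assignment and libraries.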

Additional observations from a re-analysis of the deposited data

Results flagged for a closer look

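The following genes held overlapping regions of opposite directions in different populations. On the G9ai side both libraries of a population had the peak, and on the vehicle side its only library did. The G9ai lists share nearly all peaks, so neither side is an independent replication, and the difference was not tested. Over all genes with regions in both populations, 17.8% had opposite directions for CD24neg and CD24high, and 21.5% for CD24neg and CD24low. Between CD24neg (vehicle-only) and CD24high (G9ai-only), the regions overlapped by 115 bp at Cox6c, 73 bp at Mrpl2, 131 bp at Mrpl23, 146 bp at Ndufs1 and 93 bp at Ndufs3. Between CD24neg (G9ai-only) and CD24high (vehicle-only), they overlapped by 97 bp at the region that Mrpl46 and Mrps11 share. Between CD24neg (vehicle-only) and CD24low (G9ai-only), they overlapped by 355 bp at Mrpl27 and 139 bp at Mrpl48.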

How the results depend on the processing

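Keeping repeated lines, asking for at least 50% of a region in the window, or accepting a peak in any library of the arm left all 6 counts of genes as they were. None of the genes had a region in only 1 of 2 libraries of a group. Accepting a peak in any library could therefore not change the counts. Without flanks, within 1 kb of gene ends only and with the nearest gene only, each of the 6 counts stayed within 1.5 times. With 5 kb flanks the counts in CD24neg were 13 G9ai-only and 26 vehicle-only, and 22 G9ai-only in CD24low. In the higher-scoring 50% of peaks they fell to 2 and 8 in CD24neg, 8 G9ai-only in CD24low, and 3 and 11 in CD24high. With 2552 peaks in every list G9ai-only and vehicle-only counts were 4 and 6 in CD24neg, 1 and 9 in CD24low, and 12 and 3 in CD24high, so which arm had more genes turned in CD24low and CD24high; this alternative shortens the longer lists by construction. In promoter windows only, an alternative chosen after seeing the data, G9ai-only and vehicle-only counts were 1 and 9 in CD24neg, 4 and 3 in CD24low, and 3 and 7 in CD24high. There the summed difference in the share of peaks turned to -0.0989 percentage points (exact permutation p = 0.241); the cause was not tested. Leaving out 1 library at a time gave 8 to 9 G9ai-only and 17 to 18 vehicle-only genes in CD24neg and left the other 4 counts as they were. It kept the CD24low difference between -0.163 and -0.148 and the summed difference between 0.104 and 0.119. Because replicate lists share nearly all peaks, leaving out 1 of them could change little. Under the other alternatives run for it, the summed difference lay between 0.0256 (no flanks) and 0.235 (equal list lengths), with the smallest exact permutation p at 0.444. With arm labels exchanged within replicate numbers, the replicate block, the CD24low difference of -0.155 had an exact permutation p = 0.5. No smaller p is possible under this exchange, and replicate numbers do not pair mice. Of 62 findings of a named gene in a set, 47 kept a region within 1 kb of gene ends, 34 in the higher-scoring 50% of peaks, 30 at equal list lengths and 19 in promoter windows. The share of peaks was not run for a peak in any library or for the nearest gene. Without read counts, a region absent from a list cannot be told apart from one open in both arms.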

Other observations

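Mrpl40, a large-subunit gene, was the only one of the 145 genes with a region listed in both arms of a population. In CD24neg its region, on chromosome 16 from 18877186 to 18877602, lay 549 bp outside the gene span in a window shared with Hira, a histone chaperone gene. The peak scored 101 and 80 in the G9ai libraries and 80 in the vehicle library.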
